A study of Mus musculus with 8 samples.

Results

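Epithelial-mesenchymal transition (EMT) was followed here through 10 genes, read in Lewis lung carcinoma (LLC) cells with and without FIH at 21% and 1% O2. The genes are the transcription factors Snai1, Snai2, Twist1, Zeb1 and Zeb2, the adhesion molecules Cdh1, Cdh2 and Epcam, the matrix protein Fn1 and the filament protein Vim. They were chosen by symbol, with earlier results of these data known, and are 10 of the 53700 genes in the count table. LLC is an established mouse lung carcinoma line, and FIH is an asparagine hydroxylase, encoded by Hif1an, that acts on hypoxia-inducible factors (HIFs). FIH-KO cells were made from LLC with a CRISPR/Cas9 guide to exon 2 of Hif1an and single-cell dilution, so the line is a clone and a difference from WT may be particular to it. RNA was sequenced from 4 groups, WT normoxia, FIH-KO normoxia, WT hypoxia and FIH-KO hypoxia, all cultured for 16 hours, where normoxia is 21% O2 and hypoxia 1% O2, with 2 libraries in each. Nothing in the sources used here says that the libraries of a group came from separate cultures, so p-values measure only the spread between these libraries.

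In EMT, epithelial cells loosen their junctions, lose E-cadherin and take up a motile, matrix-producing state marked by vimentin, fibronectin and N-cadherin. The SNAI, TWIST and ZEB factors drive the program, and the SNAI and ZEB proteins repress epithelial genes by binding E-box sequences in their promoters. Low oxygen is a known inducer of the program in carcinoma cells, in part through HIFs. In bulk RNA, fewer cells that express a gene and less RNA per cell cannot be told apart.

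Library totals ran from 14519731 to 18177016 counts, and the scaling factors (TMM, a correction for composition) from 0.983 to 1.02. Levels are given as counts per 1000000 of the scaled total (CPM), and a comparison between genes as CPM per kilobase of annotated exon. Fold changes and their standard errors (SE) came from edgeR's quasi-likelihood test, with p-values adjusted by the Benjamini-Hochberg method over the 13933 genes tested and a threshold of 0.05. Hif1an itself was still transcribed, at 34.7 to 51 CPM in the FIH-KO libraries and 82.2 to 90.1 CPM in the WT libraries, without overlap. Lung epithelium markers summed to between 9.5 and 13.1 CPM in every library, with Sftpc, Sftpa1, Sftpd, Scgb3a2 and Nkx2-1 at 0 reads. Haematopoietic markers summed to 3.34 to 4.68 CPM in WT normoxia and to 8.52 to 11.3 CPM in the other groups, and endothelial markers to at most 3.13 CPM. Of the 12 haematopoietic markers, 7 had at most 3 reads in every library. Lyz2 stood at group means of 0.395 and 0.236 CPM in WT cells (normoxia, hypoxia) and 5.43 and 3.41 in FIH-KO cells. Csf1r stood at 0.0592 and 0.0297 CPM in normoxia (WT, FIH-KO) and 2.23 and 1.29 in hypoxia, and Cd68 at 2.91 to 5.62 CPM. The part of these markers in the results was not tested.

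The epithelial adhesion genes were not expressed. Cdh1 (chr8:107329941-107396880, plus strand, GRCm39) encodes E-cadherin, the adherens junction protein whose loss defines EMT. It had 4 reads in all among the 131118070 counted in the 8 libraries, with 1 read each in WT normoxia replicate 2, FIH-KO normoxia replicate 2 and both WT hypoxia libraries, and 0 in the others. Epcam (chr17:87943407-87958557, plus strand), which encodes the epithelial cell adhesion molecule, had 0 reads in every library. A count of 0 allows up to 3 reads, which is 0.0229 CPM over the 8 libraries together and 0.168 to 0.205 CPM in any single one, counting error only. Both genes were below edgeR's filter on low counts, so no difference in them was detectable at this depth in either genotype or oxygen condition. Epcam and Cdh1 are also 2 of the 5 carcinoma markers checked against the label of the line. Of the other 3, the keratin gene Krt8 stood at 104 to 332 CPM and Krt18 at group means of 124 to 187 CPM, while Krt19 stood at 0.651 to 14.7 CPM.

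The bases before the Cdh1 start are shown because the SNAI and ZEB repressors are known for binding E-boxes in this promoter. The stretch below was read from GRCm39 at chr8:107329733-107329940 on the plus strand, from 250 to 43 bases before the start of the canonical transcript. Capitals mark the E-box letters CAGGTG or CACCTG, which are each other's reverse complement, so the search covered both strands.
Cdh1: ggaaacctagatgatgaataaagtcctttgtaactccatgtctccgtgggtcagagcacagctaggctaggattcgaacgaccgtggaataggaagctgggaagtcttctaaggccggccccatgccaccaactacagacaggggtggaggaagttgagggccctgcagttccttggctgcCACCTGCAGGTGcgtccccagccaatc
These capitals are 2 adjacent E-boxes, from -69 to -64 and from -63 to -58 relative to the start. A further copy lies from -13 to -8, inside an annotated exon of another transcript, and is not printed. E-box letters occurred in the 250 bases before the start in 17.6% of 21626 genes, once each in Snai1, Cdh2 and Epcam and 2 times in Zeb1, and not in Fn1, Vim, Snai2, Twist1 or Zeb2. A match in letters is a description of the reference and carries no measure of binding.

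The mesenchymal genes among the 10, Vim, Fn1 and Cdh2, and the 5 transcription factors were all expressed, over a wide range. Per kilobase, Vim was highest at 670 to 1140 CPM and ranked between 13 and 24 in group means among 13898 genes with a length, and it took 0.322% to 0.538% of all counts. Fn1 followed at 60.2 to 349 CPM per kilobase, rank 68 to 441. Snai2 at 17.6 to 51.6 and Twist1 at 19.9 to 22.9 CPM per kilobase were the most abundant of the 5 transcription factors in every group. Snai1 (5.06 to 11.2), Zeb1 (5.16 to 7.31), Zeb2 (1.85 to 4.33) and Cdh2 (2.58 to 3.29) were lower, and the ranges of Snai1 and Zeb1 overlapped, as did those of Zeb2 and Cdh2. Vim and Fn1 did not overlap each other or any other gene on this scale.

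**Figure D1:**
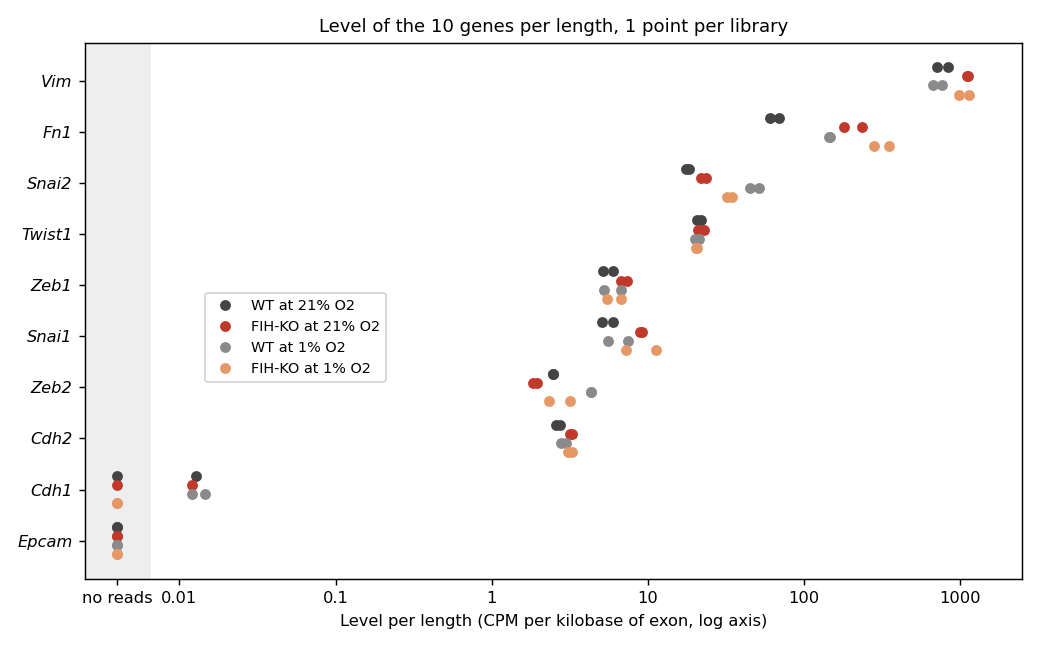
Level of each of the 10 genes in CPM per kilobase of annotated exon (log axis), with a point for each of the 8 libraries coloured by group and values of 0 drawn at the left edge. Vim sits at 670 to 1140 in every library, Twist1 stays between 19.9 and 22.9, and Epcam is at 0 throughout.

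Which of these genes differed between FIH-KO and WT cells was asked first in normoxia. Snai1, Fn1 and Vim rose in FIH-KO cells, 3 of the 8 genes tested and all upward, where 28.2% of all tested genes were called in either direction and 15.2% were called higher. The libraries of the groups did not overlap for 7 of the 8, every one but Twist1, where 69.4% of all tested genes did not overlap. In hypoxia 4 of the 8 were called, with Fn1 and Vim higher and Snai2 and Zeb2 lower in FIH-KO cells, against 28% of all tested genes (14.1% higher, 13.9% lower). Groups did not overlap in hypoxia for 5 of the 8, against 61.7% of all tested genes. The median log2 fold change of the 8 was 0.34 in normoxia and 0.08 in hypoxia, and that of all tested genes was within 0.04 of 0 in both.

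**Figure D2:**
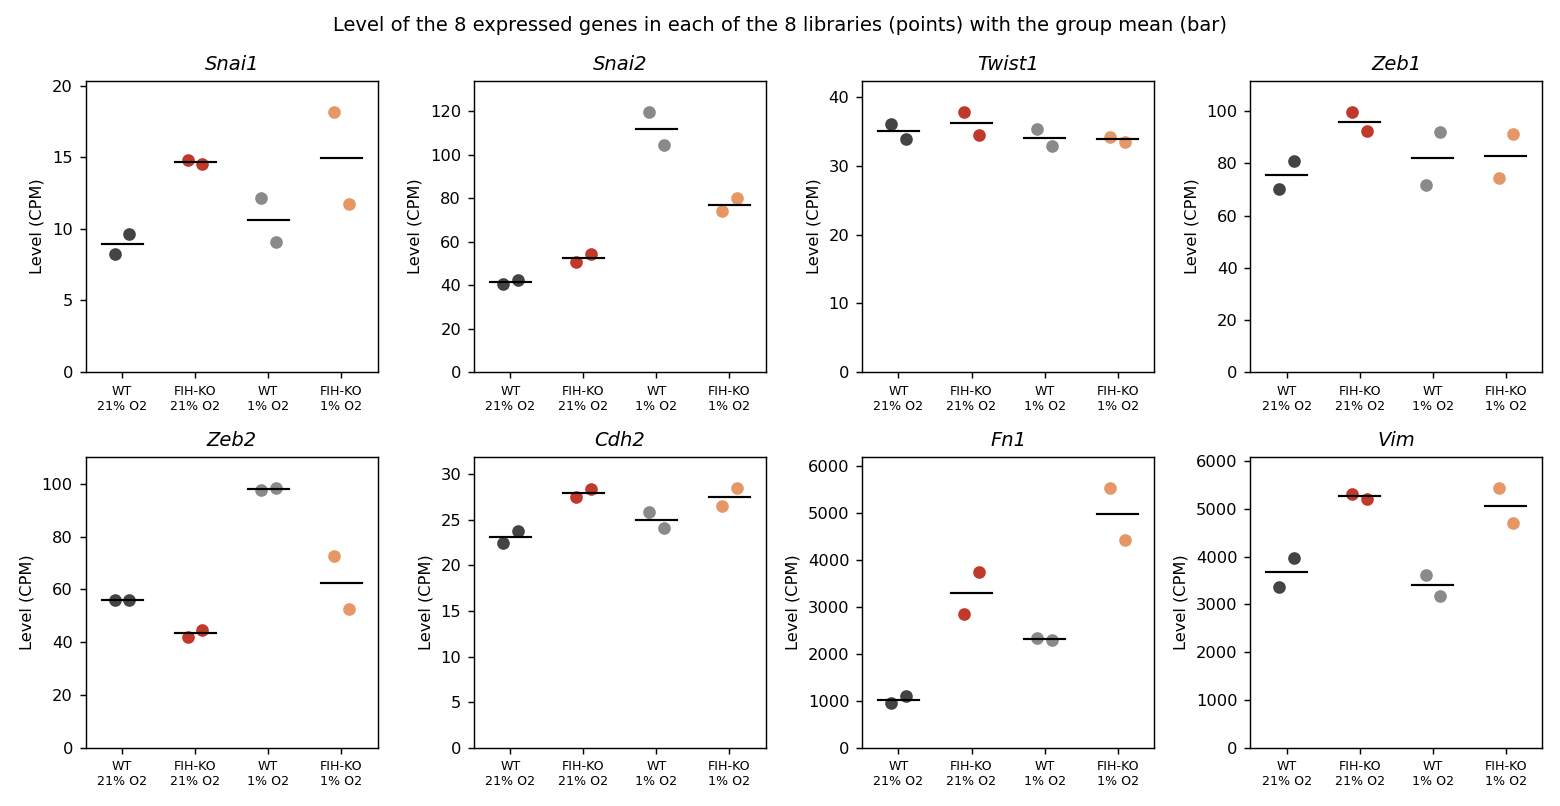
Level in CPM (linear axes from 0) of the 8 expressed genes in each of the 8 libraries, with a bar at each group mean. Fn1 rises from 953 and 1099 CPM in WT normoxia to 5528 and 4416 CPM in FIH-KO hypoxia, while Twist1 lies between 32.9 and 37.8 CPM in all 8 libraries.

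Fn1 (chr1:71624673-71692419, minus strand) encodes fibronectin, a matrix glycoprotein that cells bind through integrins, and it varied most of the 10. Its level was 953 and 1099 CPM in WT normoxia, 2841 and 3737 in FIH-KO normoxia, 2325 and 2302 in WT hypoxia, and 5528 and 4416 in FIH-KO hypoxia. The 4 groups did not overlap, and the highest library was 5.8 times the lowest. FIH-KO cells held 3.21-fold more Fn1 RNA than WT cells in normoxia (log2 fold change 1.68, SE 0.17, adjusted p = 3.5e-05, edgeR) and 2.15-fold more in hypoxia (1.10, SE 0.16, adjusted p = 0.00056, edgeR). Hypoxia raised it 2.26-fold in WT cells (1.17, SE 0.16, adjusted p = 0.00031, edgeR) and 1.51-fold in FIH-KO cells (0.60, SE 0.16, adjusted p = 0.026, edgeR). The rise in FIH-KO cells was lost without FIH-KO normoxia replicate 1 (0.43, adjusted p = 0.15, edgeR) or FIH-KO hypoxia replicate 1 (0.45, adjusted p = 0.094, edgeR), and with only the 4 FIH-KO libraries in the fit (0.62, adjusted p = 0.092, edgeR). The share of all counts that fell on Fn1 went from 0.0952% in the lowest library to 0.544% in the highest.

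Vim (chr2:13578738-13587639, plus strand) encodes vimentin, the intermediate filament of mesenchymal cells. It stood at 3373 and 3977 CPM in WT normoxia, 5310 and 5213 in FIH-KO normoxia, 3609 and 3185 in WT hypoxia, and 5437 and 4694 in FIH-KO hypoxia. All 4 FIH-KO libraries lay above all 4 WT libraries, and the oxygen groups of each genotype overlapped. The difference between genotypes was 1.43-fold in normoxia (log2 fold change 0.52, SE 0.14, adjusted p = 0.017, edgeR) and 1.49-fold in hypoxia (0.58, SE 0.14, adjusted p = 0.01, edgeR). It was 0.37 in normoxia without WT normoxia replicate 1 (adjusted p = 0.21, edgeR), 0.48 without FIH-KO normoxia replicate 1 (adjusted p = 0.079, edgeR), and 0.49 in hypoxia without WT hypoxia replicate 2 (adjusted p = 0.086, edgeR). Hypoxia gave log2 differences of -0.11 in WT cells (SE 0.14, adjusted p = 0.58, edgeR) and -0.05 in FIH-KO cells (SE 0.14, adjusted p = 0.84, edgeR). Per kilobase, Vim exceeded Fn1 by 11.8 and 12.1 times in WT normoxia and by 3.28 and 3.54 times in FIH-KO hypoxia, with the other 4 libraries from 4.61 to 6.23.

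Cdh2 (chr18:16700793-16942381, minus strand) encodes N-cadherin, which replaces E-cadherin in the classical account of EMT. Its level was 22.4 and 23.7 CPM in WT normoxia, 27.5 and 28.4 in FIH-KO normoxia, 25.9 and 24.1 in WT hypoxia, and 26.5 and 28.5 in FIH-KO hypoxia. The FIH-KO libraries were the 4 highest, but the differences from WT did not pass the test, at 0.28 on the log2 scale in normoxia (SE 0.13, adjusted p = 0.15, edgeR) and 0.14 in hypoxia (SE 0.13, adjusted p = 0.48, edgeR). The oxygen effects were 0.11 in WT cells and -0.02 in FIH-KO cells, each with an SE of 0.13. Of the 3 adhesion genes, Cdh2 alone had more than 1 read in any library, and its highest library was 1.27 times its lowest.

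Snai2 (chr16:14523425-14527252, plus strand), the gene for Slug, a zinc-finger repressor, moved with both genotype and oxygen. It stood at 40.7 and 42.6 CPM in WT normoxia, 50.4 and 54.5 in FIH-KO normoxia, 119.5 and 104.5 in WT hypoxia, and 74.3 and 79.9 in FIH-KO hypoxia. The 4 groups did not overlap, and FIH-KO libraries were above WT in normoxia and below WT in hypoxia. Hypoxia raised Snai2 2.69-fold in WT cells (log2 fold change 1.43, SE 0.12, adjusted p = 1e-05, edgeR) and 1.47-fold in FIH-KO cells (0.56, SE 0.12, adjusted p = 0.0072, edgeR). FIH-KO cells held 0.688 times the WT level in hypoxia (-0.54, SE 0.11, adjusted p = 0.0045, edgeR). The difference in normoxia, 0.33 (SE 0.12, adjusted p = 0.052, edgeR), was just short of the threshold. It passed with only the 4 normoxia libraries in the fit (0.34, adjusted p = 0.04, edgeR). Without WT hypoxia replicate 1 the value in hypoxia was -0.41 (adjusted p = 0.078, edgeR), and without FIH-KO normoxia replicate 1 the oxygen effect in FIH-KO cells was 0.52 (adjusted p = 0.054, edgeR).

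The 250 bases before the Snai2 start are shown because Snai2 had the largest response to oxygen of the 5 transcription factors in WT cells. They were read from GRCm39 at chr16:14523175-14523424 on the plus strand, and capitals mark the core of the hypoxia response element, ACGTG or GCGTG on either strand.
Snai2: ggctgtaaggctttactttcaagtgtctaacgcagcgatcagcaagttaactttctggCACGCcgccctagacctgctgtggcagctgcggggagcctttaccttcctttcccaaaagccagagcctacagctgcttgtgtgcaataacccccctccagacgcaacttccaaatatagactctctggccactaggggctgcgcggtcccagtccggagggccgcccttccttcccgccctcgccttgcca
The window holds 1 such core, read CACGC along the gene, from -192 to -188. Cores of this kind occurred in 41.3% of 21626 windows of the same length, among them those of Snai1 (3), Vim (2), Epcam (2), Twist1 (1) and Zeb2 (1). The windows of Fn1, Cdh1, Cdh2 and Zeb1 held 0, which says only that these letters are not there.

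Zeb2 (chr2:44873644-45007464, minus strand), a zinc-finger and homeodomain repressor, rose with hypoxia and was lower in FIH-KO cells under it. Its level was 55.8 and 56.1 CPM in WT normoxia, 42.0 and 44.6 in FIH-KO normoxia, 97.6 and 98.5 in WT hypoxia, and 72.6 and 52.6 in FIH-KO hypoxia. In each oxygen condition both FIH-KO libraries were below both WT libraries, and the FIH-KO hypoxia libraries differed from each other by 1.38-fold. Hypoxia raised Zeb2 1.75-fold in WT cells (log2 fold change 0.81, SE 0.14, adjusted p = 0.0013, edgeR) and 1.45-fold in FIH-KO cells (0.53, SE 0.14, adjusted p = 0.025, edgeR). FIH-KO cells held 0.638 times the WT level in hypoxia (-0.65, SE 0.14, adjusted p = 0.0052, edgeR), and the value in normoxia was -0.37 (SE 0.14, adjusted p = 0.073, edgeR). With only the 4 normoxia libraries in the fit the normoxia value passed (-0.37, adjusted p = 0.025, edgeR). The rise in FIH-KO cells did not pass without FIH-KO hypoxia replicate 1 (0.31, adjusted p = 0.15, edgeR), FIH-KO normoxia replicate 1 (0.51, adjusted p = 0.11, edgeR) or FIH-KO normoxia replicate 2 (0.60, adjusted p = 0.062, edgeR), or with only the FIH-KO libraries in the fit (0.56, adjusted p = 0.071, edgeR). The antisense gene Zeb2os, which shares 871 exon bases with Zeb2, had 65 reads in the 8 libraries against 8480 for Zeb2, and reads from the shared bases could not be told apart if the counting did not use strand, which the sources used here do not state.

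Zeb1 (chr18:5591851-5775467, plus strand), the paralog of Zeb2 with the same kind of DNA-binding domains, did not pass any of these tests with the settings used throughout. It stood at 70.3 and 80.9 CPM in WT normoxia, 99.6 and 92.3 in FIH-KO normoxia, 71.8 and 92.1 in WT hypoxia, and 74.3 and 91.3 in FIH-KO hypoxia. The genotypes were separate in normoxia and overlapped in hypoxia. The log2 differences were 0.34 in normoxia (SE 0.15, adjusted p = 0.099, edgeR) and 0.02 in hypoxia (SE 0.15, adjusted p = 0.95, edgeR), and the effect of oxygen was 0.11 in WT cells and -0.21 in FIH-KO cells. With only the 4 normoxia libraries in the fit the normoxia value passed (0.35, adjusted p = 0.034, edgeR). With every gene of at least 1 read kept it was at the threshold (0.36, adjusted p = 0.05, edgeR). Per kilobase, Zeb1 exceeded Zeb2 by 2.10 and 2.41 times in WT normoxia, 3.96 and 3.45 in FIH-KO normoxia, 1.23 and 1.56 in WT hypoxia, and 1.71 and 2.89 in FIH-KO hypoxia. The ratio was thus above 1 in every library, highest in FIH-KO normoxia and lowest in WT hypoxia.

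Snai1 (chr2:167380113-167384734, plus strand) encodes Snail, the zinc-finger repressor closest to Slug, and was the least counted of the 8, with 128 to 291 reads a library. Its level was 8.22 and 9.65 CPM in WT normoxia, 14.8 and 14.5 in FIH-KO normoxia, 12.2 and 9.07 in WT hypoxia, and 18.2 and 11.8 in FIH-KO hypoxia. The genotypes were separate in normoxia and overlapped in hypoxia, where the FIH-KO libraries differed by 1.54-fold. In normoxia FIH-KO cells held 1.64-fold more Snai1 RNA than WT cells (log2 fold change 0.71, SE 0.23, adjusted p = 0.036, edgeR). The value was 0.58 without WT normoxia replicate 1 and 0.81 without WT normoxia replicate 2. It was 0.68 without FIH-KO normoxia replicate 1 and 0.70 without FIH-KO normoxia replicate 2. The call was lost in each of these fits, which leave a lone library in a group. In hypoxia the value of 0.49 did not pass (SE 0.23, adjusted p = 0.13, edgeR), and without FIH-KO hypoxia replicate 2 it was 0.77 and did (adjusted p = 0.025, edgeR). It was 0.19 without FIH-KO hypoxia replicate 1 (adjusted p = 0.6, edgeR), 0.30 without WT hypoxia replicate 2 (adjusted p = 0.47, edgeR) and 0.76 without WT hypoxia replicate 1 (adjusted p = 0.098, edgeR). Oxygen gave 0.25 in WT cells (SE 0.23, adjusted p = 0.45, edgeR) and 0.03 in FIH-KO cells (SE 0.22, adjusted p = 0.95, edgeR).

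The proportion of Slug to Snail RNA was highest in WT hypoxia. Per kilobase, Snai2 exceeded Snai1 by 3.47 and 3.09 times in WT normoxia, 2.39 and 2.63 in FIH-KO normoxia, 6.89 and 8.08 in WT hypoxia, and 2.87 and 4.76 in FIH-KO hypoxia. FIH-KO libraries were below WT in normoxia and in hypoxia without overlap, while the range in FIH-KO hypoxia contained that in WT normoxia. These ratios are a description and were not tested.

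Twist1 (chr12:34007645-34009828, plus strand), a basic helix-loop-helix factor, had the narrowest range of the 8. It stood at 36.2 and 33.9 CPM in WT normoxia, 37.8 and 34.6 in FIH-KO normoxia, 35.3 and 32.9 in WT hypoxia, and 34.3 and 33.6 in FIH-KO hypoxia. The highest library was 1.15 times the lowest, and genotypes overlapped in both oxygen conditions. The genotype differences were 0.05 in normoxia (adjusted p = 0.81, edgeR) and -0.01 in hypoxia (adjusted p = 0.96, edgeR), and the oxygen differences -0.04 in WT cells (adjusted p = 0.85, edgeR) and -0.09 in FIH-KO cells (adjusted p = 0.67, edgeR), each with an SE of 0.13 on the log2 scale. The difference in hypoxia lay between -0.01 and 0.03 under the alternatives that kept all 4 hypoxia libraries, and between -0.06 and 0.08 with 1 of these left out. Snai2 per kilobase was 0.804 to 1.13 times Twist1 in the normoxia libraries and 1.55 to 2.41 times Twist1 in the hypoxia libraries.

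**Figure D3:**
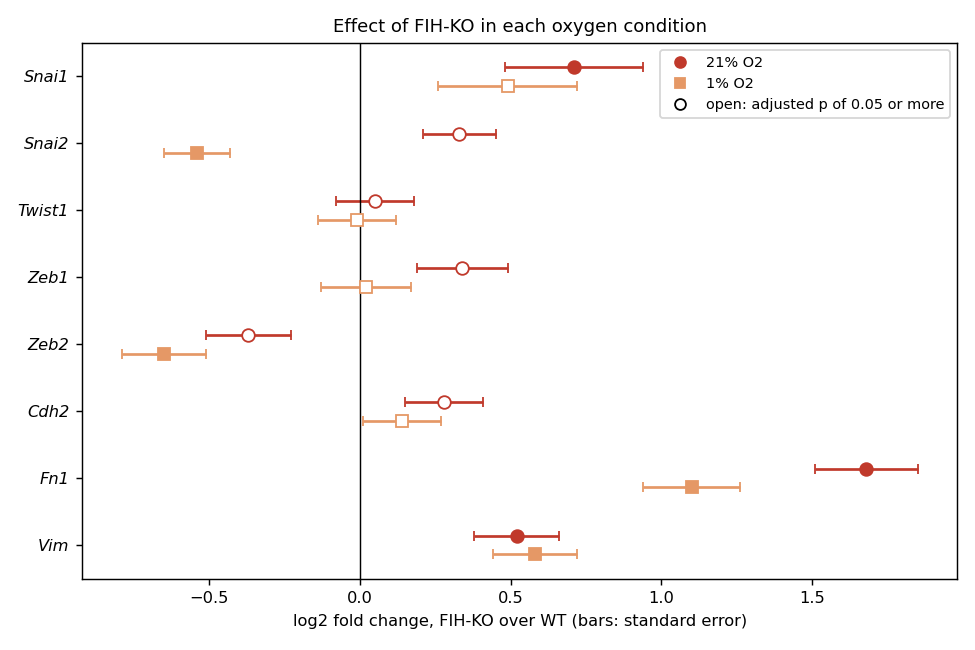
Log2 fold change of FIH-KO over WT for the 8 expressed genes at 21% O2 (circles) and 1% O2 (squares), with bars of 1 SE and open symbols for an adjusted p of 0.05 or more. Fn1 (1.68 and 1.10) and Vim (0.52 and 0.58) are filled and above 0 in both conditions, while Snai2 lies at 0.33 (open) and -0.54 (filled).

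What hypoxia did to the same genes was asked in each genotype. Snai2, Zeb2 and Fn1 rose in WT cells, 3 of the 8 tested, where 32.4% of all tested genes were called and 16.9% were called higher. They were also the 3 that rose in FIH-KO cells, where 16.8% of all tested genes were called and 8.84% were called higher. Of the 5 transcription factors, 2 thus rose in each genotype, and Snai1, Twist1 and Zeb1 did not pass in either. The fitted rise of each of the 3 genes was smaller in FIH-KO cells, with 1.43 against 0.56 for Snai2, 0.81 against 0.53 for Zeb2 and 1.17 against 0.60 for Fn1. The test of that difference called 0 of the 8, and 0 of the 13933 tested genes with edgeR, although 925 genes had an unadjusted p under 0.05. Snai2 came nearest with a difference of -0.87 (SE 0.16, unadjusted p = 0.00017, adjusted p = 0.19, edgeR), and it was -0.86 with an adjusted p of 0.015 in DESeq2 and -0.85 with an adjusted p of 0.0075 in edgeR with every gene of at least 1 read kept. For Fn1 the difference was -0.58 (SE 0.23, adjusted p = 0.67, edgeR), with an adjusted p of 0.044 under that filter, and it was -0.30 without FIH-KO normoxia replicate 2 (adjusted p = 0.79, edgeR) and -0.70 to -0.41 without any other single library (adjusted p of 0.18 to 1, edgeR). For Zeb2 it was -0.28 (SE 0.20, adjusted p = 0.82, edgeR). The groups did not overlap for 4 of the 8 genes in WT cells, against 70.9% of all tested genes, and for 5 of the 8 in FIH-KO cells, against 55.2%.

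**Figure D4:**
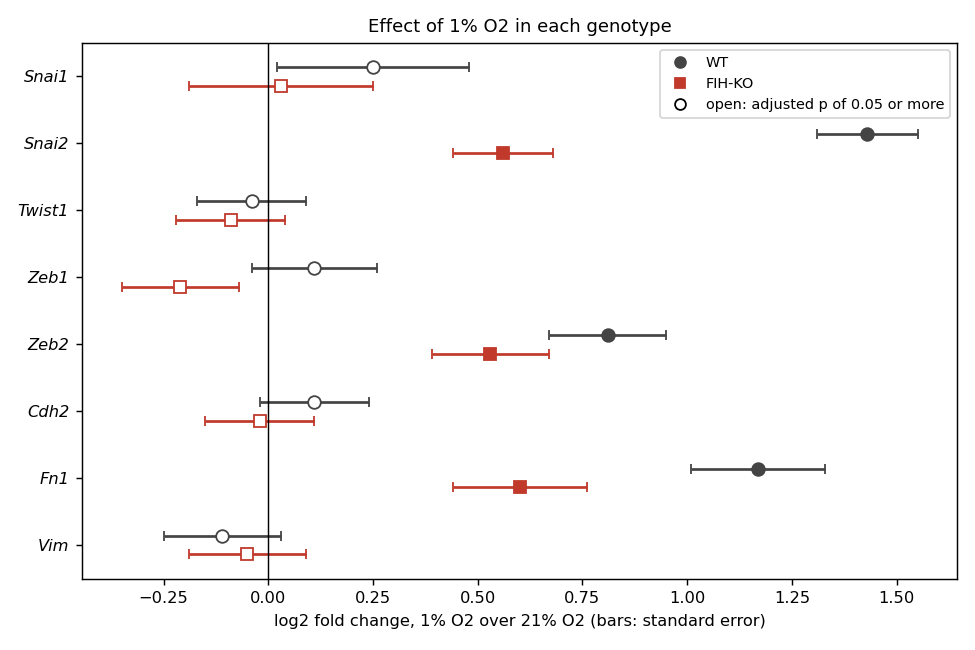
Log2 fold change of 1% O2 over 21% O2 for the 8 expressed genes in WT (circles) and FIH-KO cells (squares), with bars of 1 SE and open symbols for an adjusted p of 0.05 or more. Snai2 (1.43 and 0.56), Zeb2 (0.81 and 0.53) and Fn1 (1.17 and 0.60) are filled in both genotypes, and the other 5 genes are open in both.

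The position of each gene was set beside its change, since the median change in FIH-KO cells differed between chromosomes. Snai1, Vim and Zeb2 are on chromosome 2, where the median over 1113 tested genes was 0.23 on the log2 scale in normoxia and 0.21 in hypoxia. Vim exceeded that median while its 20 nearest tested genes had medians of -0.05 and 0.00, and Zeb2 lay on the other side of it with nearby medians of 0.16 and 0.19. Snai2 is on chromosome 16, where the median was 0.23 and 0.18 and the 20 nearest tested genes had a median of 0.32 in each condition, close to the value of 0.33 for Snai2 in normoxia and opposite to the -0.54 in hypoxia. Fn1 is on chromosome 1, with a median of -0.06 and -0.12 and nearby medians of 0.00 and -0.04, far from its own 1.68 and 1.10. The nearby medians of Snai1 were 0.22 and 0.09, beside its own 0.71 and 0.49. Zeb1 and Cdh2 are on chromosome 18, with a median of 0.12 in each condition. Their nearby medians were 0.14 and 0.09 for Zeb1 (18 genes) and -0.12 and -0.20 for Cdh2. Twist1 is on chromosome 12, with a median of 0.05 and 0.02 and nearby medians of 0.06 and 0.18. The part of position in these differences was not tested.

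The wider EMT program was read from 6 further lists of genes, of which the genes that changed most in both conditions are named. The lists were chosen with earlier results of these data known, so their shares of called genes are a description only. Counts of calls with a library left out stand without the share of all tested genes in the same fit, which may have changed too. Of 31 tested mesenchymal matrix and contractile genes, 12 rose and 6 fell in FIH-KO cells in normoxia (58.1% called, where 28.2% of all tested genes were) and 11 rose and 6 fell in hypoxia (54.8%, where 28% of all tested genes were). The median over the list was 0.33 on the log2 scale in each. This list too held silent genes. Among its 40 genes, 4 had at most 3 reads in every library, 2 of these had 0 throughout, and 9 had at most 12. The 18 calls in normoxia became 8 without WT normoxia replicate 1 and 11 without FIH-KO normoxia replicate 2. Col6a1, a chain of collagen VI, rose by 2.62 (SE 0.17, adjusted p = 1.9e-06, edgeR) and 3.11 (SE 0.18, adjusted p = 1.4e-06, edgeR), from 47.6 and 56.5 CPM in WT normoxia to at most 342 in FIH-KO normoxia. Acta2, the smooth muscle actin of contractile cells, rose by 3.10 in normoxia (SE 0.62, adjusted p = 0.0034, edgeR), which was 1.79 without FIH-KO normoxia replicate 2 (adjusted p = 0.047, edgeR) and 2.71 to 3.75 without any other single library, all called. It stood at 2.96 in hypoxia (SE 1.03), where it was just past the threshold on at most 69 reads a library and did not pass with 1 of 5 libraries left out, at 1.45 without FIH-KO hypoxia replicate 2 (adjusted p = 0.47, edgeR), 2.51 and 3.55 without WT hypoxia replicate 1 or 2, and with adjusted p-values of 0.052 and 0.053 (edgeR) without WT normoxia replicate 1 or 2. Tnc, the matrix protein tenascin C, fell by 1.64 in normoxia (adjusted p = 0.021, edgeR) and fell by 2.68 in hypoxia (adjusted p = 0.00024, edgeR), the first of which was not called without FIH-KO normoxia replicate 2 (-1.39), FIH-KO normoxia replicate 1 (-1.99) or WT normoxia replicate 2 (-1.46). Nes, the filament protein nestin, fell by 0.92 (adjusted p = 0.003, edgeR) and 0.89 (adjusted p = 0.0038, edgeR). The list thus held genes that moved in either direction, 10 of them higher and 4 lower in both oxygen conditions.

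Many epithelial junction and keratin genes were at or near 0 reads. Of 40 such genes, 18 had at most 3 reads in every library, 9 of these had 0 throughout, and 15 were tested. In FIH-KO cells 2 rose and 2 fell in each oxygen condition (26.7% called), a share near the 28.2% and 28% of all tested genes. The 4 calls in hypoxia became 2 without WT hypoxia replicate 1 and 7 without FIH-KO hypoxia replicate 1. Krt8, a keratin of simple epithelia, rose by 1.02 (SE 0.16, adjusted p = 0.00066, edgeR) in normoxia and 1.00 (SE 0.16, adjusted p = 0.00083, edgeR) in hypoxia. The epithelial-state factors Ovol2, Grhl3, Elf5, Ehf and Hnf4a were at 0 reads, and 9 of the 21 genes of that list were tested, of which 1 rose and 1 fell in normoxia (22.2%) and 3 fell in hypoxia (33.3%). Among 14 tested cadherins, catenins and nectins, 3 rose and 1 fell in normoxia (28.6%, near the share of all tested genes) and 3 rose and 3 fell in hypoxia (42.9%). These 4 calls in normoxia became 1 without WT normoxia replicate 1 or FIH-KO normoxia replicate 1 and 2 without WT normoxia replicate 2, and the 6 in hypoxia became 3 without WT hypoxia replicate 2. Ctnna1, the α-catenin that links cadherins to actin, rose by 0.74 (adjusted p = 0.00053, edgeR) and 0.53 (adjusted p = 0.0042, edgeR), and Ctnnd1, the p120 catenin, by 0.57 (adjusted p = 0.0041, edgeR) and 0.62 (adjusted p = 0.0025, edgeR). Nectin2, an adherens junction protein, fell by 0.90 (adjusted p = 0.038, edgeR) and 1.03 (adjusted p = 0.019, edgeR), on a mean of 84.9 reads. The normoxia value of Ctnnd1 did not pass without WT normoxia replicate 1 (0.48) or FIH-KO normoxia replicate 1 (0.44). That of Nectin2 did not pass without either WT normoxia library (-1.12 and -0.70), without FIH-KO normoxia replicate 1 (-0.66) or with DESeq2 (-0.90, adjusted p = 0.051), and its hypoxia value without WT hypoxia replicate 2 (-0.84) or FIH-KO hypoxia replicate 2 (-0.83).

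**Figure D5:**
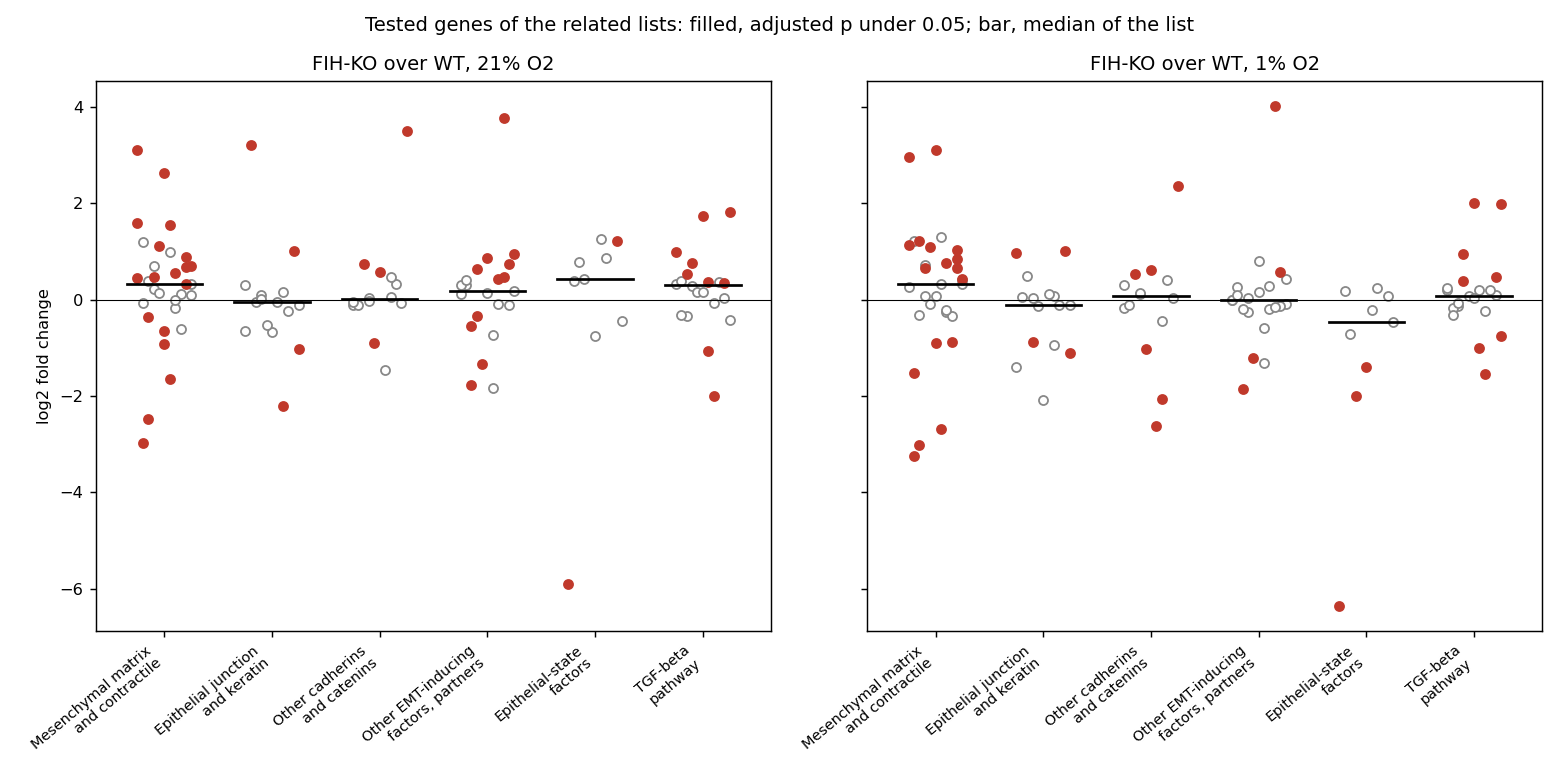
Log2 fold change of FIH-KO over WT for every tested gene of 6 related lists at 21% O2 and 1% O2, with filled points for an adjusted p under 0.05 and a bar at each list's median. The mesenchymal list has called genes on both sides of 0 and a median of 0.33 in each panel, and the epithelial junction list has 2 called genes on each side in each panel.

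Of 21 tested further EMT-inducing factors and partners, 7 rose and 4 fell in FIH-KO cells in normoxia (52.4%, against 28.2% of all tested genes) and 2 rose and 2 fell in hypoxia (19%, against 28%). The 11 calls in normoxia became 4 without WT normoxia replicate 1, 5 without WT normoxia replicate 2 and 6 without FIH-KO normoxia replicate 1, and the 4 in hypoxia became 7 without FIH-KO hypoxia replicate 1. The difference between the oxygen conditions called 0 of the 21 (edgeR). Tbx3, a T-box factor, fell by 1.77 (SE 0.27, adjusted p = 0.00056, edgeR) and 1.86 (SE 0.28, adjusted p = 0.00061, edgeR), and Prrx1, a homeobox factor of mesenchyme, by 1.34 (SE 0.18, adjusted p = 0.00029, edgeR) and 1.21 (SE 0.18, adjusted p = 0.00058, edgeR). Id1, an inhibitor of basic helix-loop-helix factors, rose by 0.75 (adjusted p = 0.011, edgeR) and 0.57 (adjusted p = 0.046, edgeR). The Id1 call in normoxia was lost without WT normoxia replicate 1 (0.67) or 2 (0.78) or FIH-KO normoxia replicate 2 (0.53), and that in hypoxia without either WT normoxia library (0.61), WT hypoxia replicate 2 (0.37) or FIH-KO hypoxia replicate 1 (0.60) or 2 (0.59), and with only the 4 libraries compared (0.60). All 20 genes of the TGF-beta pathway, the best known inducer of EMT, were tested, and 7 rose and 2 fell in normoxia (45%) and 5 rose and 3 fell in hypoxia (40%). These 9 calls became 4 without WT normoxia replicate 1 and 5 without FIH-KO normoxia replicate 1, and the 8 became 4 without WT hypoxia replicate 1 and 5 without WT hypoxia replicate 2 or FIH-KO hypoxia replicate 1. Tgfbi, a matrix protein named for its induction by TGF-beta, rose by 1.81 (adjusted p = 0.00048, edgeR) and 1.98 (adjusted p = 0.00053, edgeR), the ligand gene Tgfb3 by 0.77 (adjusted p = 0.0033, edgeR) and 0.95 (adjusted p = 0.0012, edgeR), and the receptor gene Tgfbr1 fell by 1.07 (adjusted p = 0.00049, edgeR) and 1.00 (adjusted p = 0.00076, edgeR). Without WT normoxia replicate 1 the Tgfb3 value in normoxia was 0.72 and did not pass.

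Under hypoxia 32.4% of all tested genes were called in WT cells and 16.8% in FIH-KO cells. In WT cells every list held genes called in either direction. The 14 tested cadherins, catenins and nectins had 4 rises and 3 falls in WT cells (50%), and 1 rise alone in FIH-KO cells (7.14%). For the 9 tested epithelial-state factors these were 5 and 1 in WT cells (66.7%), and 1 and 1 in FIH-KO cells (22.2%). With DESeq2 the WT calls of that list numbered 3. Of the 31 tested mesenchymal genes, 4 rose and 8 fell in WT cells (38.7%), and 3 rose and 7 fell in FIH-KO cells (32.3%), where 6 in all were called without FIH-KO normoxia replicate 2. Tpm1, a tropomyosin, fell by 1.03 in WT cells (adjusted p = 8.3e-05, edgeR) and by 0.99 in FIH-KO cells (adjusted p = 0.00023, edgeR). Of the 15 tested epithelial junction genes, 6 rose and 6 fell in WT cells (80%), and 3 rose and 2 fell in FIH-KO cells (33.3%). The 12 calls in WT cells became 7 without WT normoxia replicate 2 and 6 without WT hypoxia replicate 1, and the 5 in FIH-KO cells became 2 without FIH-KO normoxia replicate 1 and 3 without either WT normoxia library, WT hypoxia replicate 1 or FIH-KO hypoxia replicate 1. Krt19, a keratin of simple epithelia, rose by 3.20 (adjusted p = 0.00056, edgeR) and 3.74 (adjusted p = 4e-04, edgeR), and Pkp2, a desmosomal plakophilin, by 1.09 (adjusted p = 0.0014, edgeR) and 1.48 (adjusted p = 0.00048, edgeR). The 21 tested further EMT-inducing factors and partners gave 3 rises and 2 falls in WT cells (23.8%), and 1 rise and 5 falls in FIH-KO cells (28.6%). Among them, Sox9 rose by 1.74 (adjusted p = 0.00055, edgeR) and 1.90 (adjusted p = 0.00083, edgeR), and Prrx2 fell by 1.55 in WT cells (adjusted p = 0.0042, edgeR) and fell by 1.87 in FIH-KO cells (adjusted p = 0.0028, edgeR). Of the 20 genes of the TGF-beta list, 6 rose and 6 fell in WT cells (60%) and 4 rose and 5 fell in FIH-KO cells (45%). The 9 calls in FIH-KO cells became 2 without FIH-KO normoxia replicate 1, 3 without FIH-KO hypoxia replicate 1, 4 without FIH-KO normoxia replicate 2 and 5 without either WT normoxia library. Ltbp1, which binds latent TGF-beta, fell by 0.89 (adjusted p = 0.00057, edgeR) and 1.03 (adjusted p = 0.00048, edgeR). Further genes that the rule names here, Tjp1, Tnc, Acta2, Id3, Klf4, Foxa2, Smad7, Tgif1 and Tgfbi, were called in both genotypes with all libraries and in at least 1 genotype lost that call when some single library was left out, with adjusted p-values of up to 0.35 (edgeR).

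Genes with the most similar pattern over the 8 libraries were found by Pearson's r of log2 CPM among 10575 genes, as a description in which all points share the same libraries. For Snai2 they were Fndc3b (r = 0.993), 6030458C11Rik (0.992) and Foxn2 (0.988), and for Zeb2 they were Zc3h15 (0.994), Dpf1 (0.993) and Snhg6 (0.992). The nearest to Fn1 were Prl2c2 (0.992), Swap70 (0.989) and Vps39 (0.986), and to Vim Nucb1 (0.991), Txlnb (0.986) and Cib1 (0.984). Snai1 was closest to Nr1h2 (0.972), Stk11 (0.97) and Ring1 (0.967), Zeb1 to Pafah2 (0.97), Apbb2 (0.953) and Serinc5 (0.944), and Cdh2 to Tiam2 (0.975), Arid1b (0.97) and Mau2 (0.96). Twist1, with the narrowest range, had the lowest values, at 0.937 for Otud1, 0.922 for Zswim7 and 0.907 for Rit1. None of the 10 EMT genes was among the 3 nearest to another. With 10575 candidates for 3 places, this cannot show whether the EMT genes moved together.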

How the data were processed

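Poly(A) RNA of WT and FIH-KO LLC cells was read with a stranded kit, in 2 libraries for each of 4 groups. Raw counts for 53700 genes were deposited, which the authors made with STAR (alignment to GRCm39) and HTSeq (counting) and did not normalize. The submitters' processing notes name STAR and DESeq2, and both GRCm38 and GRCm39. The annotation release, the strand setting and the handling of multi-mapping reads are not given in the sources used here. Groups were taken from the sample titles. The targeted gene, Hif1an, was checked in every library.

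The tests used edgeR 4.0.16 (with limma 3.58.1 and R 4.3.3), with filterByExpr by group, TMM factors, a quasi-likelihood fit of 4 group means over all 8 libraries, and Benjamini-Hochberg adjustment over the 13933 genes kept (threshold 0.05). Of the 10 genes, 8 were kept. The biological coefficient of variation common to all genes was 11.7%. The alternatives were DESeq2 1.42.0, RLE or upper-quartile factors, a filter of 1 read in any library or of 10 counts in every library, a fit of the 4 libraries compared, the replicate number as a term, each library left out (a lone library is assumed to vary like the other groups), and levels on unscaled totals. The fit was tested on simulated data with known changes.

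The 10 genes, the related lists and the markers were chosen with earlier results of these data known. All 10 genes were named in every comparison. From each related list up to 2 genes in each direction were named, among those called in the same direction in both conditions (or both genotypes) with a mean of at least 50 counts, in order of the smaller absolute change of the pair. Not every gene that this rule names is reported here. Others, named in the closing observations, were chosen after their values were seen. Positions, exon lengths and sequences came from GRCm39 with GENCODE, in which 52610 of the identifiers (97.97%) were found. Similar genes were ranked on log2(CPM + 0.5). Intervals and floors cover counting error only. Tables and plots were made with Python 3.11.15, pandas 2.3.3 and matplotlib 3.10.9.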

Additional observations from a re-analysis of the deposited data

Results flagged for a closer look

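Snai2 is singled out because its difference between FIH-KO and WT cells had opposite signs in the oxygen conditions. In normoxia the log2 fold change was 0.33 (SE 0.12, adjusted p = 0.052, edgeR), with 50.4 and 54.5 CPM in FIH-KO against 40.7 and 42.6 in WT libraries. In hypoxia it was -0.54 (SE 0.11, adjusted p = 0.0045, edgeR), with 74.3 and 79.9 against 119.5 and 104.5 CPM. The difference of the effects was -0.87 and did not pass over all genes (adjusted p = 0.19, edgeR). It lay between -0.96 and -0.71 with each library left out in turn and passed in none of these fits (adjusted p of 0.081 to 1, edgeR). Nor did it pass with other scaling factors, a minimum of 10 counts or the replicate block (adjusted p of 0.11 to 0.21, edgeR). It passed with DESeq2 (adjusted p = 0.015) and with every gene of at least 1 read kept (adjusted p = 0.0075, edgeR).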

How the results depend on the processing

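With 2 libraries a group, a call on an EMT gene was often lost when a single library was left out, which leaves a lone library in its group. Some calls were kept in every alternative fit. With a library left out, Fn1 in FIH-KO against WT cells lay at 1.44 to 1.84 in normoxia and 0.97 to 1.26 in hypoxia. Zeb2 lay at -0.86 to -0.43 in hypoxia. For hypoxia in WT cells the kept calls lay at 1.29 to 1.52 (Snai2), 0.76 to 0.8 (Zeb2) and 1.03 to 1.24 (Fn1). Of the 8 EMT genes tested, edgeR called 3 in FIH-KO against WT cells in normoxia, 6 with only the 4 libraries compared in the fit, and 1 to 5 with a library left out (1 without WT normoxia replicate 1 or FIH-KO normoxia replicate 1, 5 without FIH-KO hypoxia replicate 2). For hypoxia against normoxia in FIH-KO cells the count was 3, 1 with the 4 libraries, and 0 to 3 with a library left out (0 without FIH-KO normoxia replicate 1, 1 without FIH-KO hypoxia replicate 1). For the difference between oxygen conditions it was 0, 1 with DESeq2 and 2 with every gene of at least 1 read kept. Genes called in the other lists numbered 48 for FIH-KO against WT in normoxia (21 to 57 with a library left out), 54 for hypoxia in WT cells (34 to 63), 33 for hypoxia in FIH-KO cells (19 with the 4 libraries, 15 to 40 with a library left out), and 0 for the difference, which became 3 with every gene of at least 1 read kept. The level of Snai1 in FIH-KO normoxia was 14.9 CPM and that of Vim 5340 CPM on unscaled totals. The share of all tested genes called in each of these changed fits is not given here. A change in these counts therefore cannot be read as particular to the EMT genes or the lists. The causes were not tested.

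Values near 0 changed sign. In hypoxia the genotype difference of Twist1 was 0.01 with DESeq2, 0 with upper-quartile factors, 0.03 with at least 1 read, 0.01 with at least 10 counts and 0.02 with the 4 libraries, and -0.06 to 0.08 with a library left out. The oxygen difference of Cdh2 in FIH-KO cells was 0.01 with at least 10 counts or the 4 libraries, and -0.08 to 0.05 with a library left out. Other ranges across 0 with a library left out were, for FIH-KO against WT, -0.04 to 0.09 (Twist1, normoxia) and -0.14 to 0.21 (Zeb1, hypoxia) and -0.03 to 0.51 (Tgfb1, hypoxia), for hypoxia in WT cells -0.08 to 0.25 (Zeb1), -0.02 to 0.44 (Snai1) and -0.13 to 0.01 (Twist1), for hypoxia in FIH-KO cells -0.29 to 0.3 (Snai1) and -0.14 to 0.04 (Vim), and for the difference between conditions -0.1 to 0.07 (Twist1), -0.03 to 0.24 (Vim) and -0.5 to 0.07 (Snai1).

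Replicates share a number across groups. In the groups compared, the deviations of same-numbered libraries from their group means had correlations of -0.01 to 0.24. The highest was between WT hypoxia and FIH-KO hypoxia. Whether the numbers pair the samples cannot be decided from these correlations. With the replicate number as a block the EMT genes called numbered again 3, 4, 3, 3 and 0 in the 5 comparisons, and the other lists gave 54, 47, 55, 36 and 0. Cdh1 and Epcam are limited by depth, since no difference below the limit of 3 reads could be seen.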

Other observations

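Some genes of the related lists, chosen after their values were seen, differed more between genotypes than the 10 EMT genes did. Klf8, a Krüppel-like factor that has been placed among the repressors of E-cadherin, had 6 reads in each of the 4 WT libraries (0.336 to 0.409 CPM) and 85 to 107 in the FIH-KO libraries (5.06 to 6.68 CPM), a log2 fold change of 3.78 in normoxia (SE 0.36, adjusted p = 2.6e-05, edgeR) and 4.02 in hypoxia (SE 0.35, adjusted p = 1.8e-05, edgeR). Cdx2, an intestinal homeobox factor, went the other way, with 51 to 67 reads in the WT and 0 to 2 in the FIH-KO libraries. Against a floor of 3 counts per library, Cdx2 in FIH-KO cells was at least 22.6-fold lower than in WT cells in normoxia, and at least 17-fold lower in hypoxia.

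Tgfb1, the gene of the ligand TGF-beta 1, was higher in FIH-KO cells in normoxia, while the genotypes overlapped in hypoxia. It stood at 14.1 and 15.6 CPM in WT normoxia, 29.2 and 29.9 in FIH-KO normoxia, 24 and 23.5 in WT hypoxia, and 33.7 and 22.6 in FIH-KO hypoxia. The difference between genotypes was 0.99 in normoxia (SE 0.18, adjusted p = 0.002, edgeR) and 0.25 in hypoxia (SE 0.18, adjusted p = 0.33, edgeR), and the difference between these effects did not pass (-0.75, SE 0.25, adjusted p = 0.59, edgeR). The hypoxia value was -0.03 without FIH-KO hypoxia replicate 1 (adjusted p = 0.92, edgeR) and 0.51 without replicate 2 (adjusted p = 0.035, edgeR). Krt19 was at 0.651 to 1.03 CPM in the 4 normoxia libraries and at 4.98 to 14.7 CPM in the 4 hypoxia libraries, in cells with 0 reads of Epcam.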
